A study of Mus musculus with 9 samples.

Results

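Immunity-related GTPases (IRG proteins) are interferon-inducible enzymes of the mouse that defend a cell from within. They load onto the vacuoles in which bacteria and protozoa live and break them open. Interferon-gamma acts through its receptor and the kinases JAK1 and JAK2 to switch these genes on in many cell types. The effector class (Tgtp1, Tgtp2 and Iigp1), whose nucleotide-binding motif has a lysine, attacks the vacuole. The regulator class (Igtp, Irgm1 and Irgm2), which has a methionine at that place, sits on the cell's own membranes and holds the effectors inactive there. The 6 members were chosen by symbol, as the IRG family and T cell specific GTPases, from the 49671 genes in each count table. All 6 passed the filter on low counts. Their difference from melanoblasts was known when they were chosen, so both comparisons with melanoblasts are described here without a test of the members.

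RNA-seq counts were available for 9 libraries of melanocyte lineage cells sorted from the dermis of C57BL/6 female mice as KIT-positive and CD45-negative, where KIT marks the lineage and CD45 marks leukocytes. Melanoblasts, the newborn's pigment cell precursors, came from pups of postnatal day 0.5 (n = 3). Quiescent melanocyte stem cells (McSC) came from adults aged 8 to 10 weeks (n = 4) and from old mice aged 24 months (n = 2). McSC were taken while hair follicles rested (telogen), and the labels name no transgene, engineered allele or treatment in any group. Several animals were pooled for each library, and p-values therefore describe variation among pools. The aged mice came from another colony at 21 months and the others were bred in house, so age and colony cannot be told apart in any comparison with the aged group.

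The melanoblast libraries held 23688288 to 33710117 counts each, the adult libraries 19956424 to 21572026 and the aged ones 12594770 to 16362560. Genes of the mitochondrial genome took 36.6% to 41.4% of the counts in melanoblasts, 24.2% to 36.7% in adult McSC and 25.1% to 27.1% in aged McSC. All 10 melanocyte lineage markers were detected in every group, among them Dct, a pigment enzyme, at 9098 CPM in melanoblasts, 3185 CPM in adult McSC and 4349 CPM in aged McSC (CPM, counts per megacount of the library, scaled by TMM). The sort was an enrichment: 11 summed keratinocyte markers ran from 1160 to 2580 CPM over the 9 libraries. In melanoblasts Cdh1 alone averaged 1890 CPM and made most of that sum, so the sum does not compare keratinocyte content between groups. In bulk RNA, fewer cells of a type and less RNA per cell cannot be told apart. Where a gene had no count, levels up to 3 counts, or 0.117 to 0.187 CPM depending on the library, could not be told from 0, a limit that covers counting error only.

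The 2 classes can be read from the coding sequence. Stretches of 8 codons over the nucleotide-binding motif are shown with codon 7 in capitals, from the GENCODE M21 transcripts on build mm10.
Tgtp1 and Tgtp2: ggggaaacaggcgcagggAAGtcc
Igtp, Irgm1 and Irgm2: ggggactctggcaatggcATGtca
AAG encodes lysine and ATG methionine, and Iigp1 also had AAG. The coding sequences of Tgtp1 and Tgtp2 were both 1248 bases long and differed at 4 bases (99.68% identity). None of these differences (G270C, C408T, C729T and C735A, with the Tgtp1 base first and positions counted from 1 at the start codon) changed the encoded residue. Among the others, identity was 71.78% between Igtp and Irgm2, 68.51% between Igtp and Irgm1, and 63.39% between Tgtp1 and Iigp1. Pairs across the classes shared 53.67% to 59.28%.

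Tgtp1 and Tgtp2 were therefore hard to separate by their reads. Of all windows of one read length (126 bases) in the Tgtp1 transcripts, 68.7% also occurred in Tgtp2 or in Gm12185, an overlapping gene of the family, and of those in Tgtp2 72% occurred elsewhere. The share was 2.66% in Igtp and 1.56% in Irgm2, which overlap by 162 exon bases on the same strand, and 0 in Iigp1 and Irgm1. How the deposited counts treated shared reads is not given in the sources used here, so values of Tgtp1 and Tgtp2 are uncertain one by one and their sum is given beside them.

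The members other than Iigp1 lie in 2 groups on chromosome 11 (build mm10). Irgm1 (48861968-48871683), Tgtp1 (48985327-48994172) and Tgtp2 (49057194-49064206) are on the minus strand. Igtp (58199556-58207591) and Irgm2 (58199618-58222782) are on the plus strand. Promoter sequence from RefSeq on GRCm38.p6, the same build, was matched by symbol for these 5 members and not for Iigp1. Because all 5 stood higher in McSC than in melanoblasts, the 250 bases before each start were searched on both strands for the letters of 2 interferon response elements. These were GAAA, any 2 bases and GAAA again, after the interferon-stimulated response element (ISRE), which IRF factors bind, and TTCNNNGAA, after the gamma-activated site (GAS). The matching stretches of 30 bases are shown 5′ to 3′ on the gene's strand with the matches in capitals, GAS before ISRE where both are present.
Tgtp1, chr11:48992311-48992340, minus strand: agccatTTCCAGGAAtcGAAACTGAAAcct
Tgtp2, chr11:49064270-49064299, minus strand: agccatTTCCAGGAAtcGAAACCGAAAcct
Igtp, chr11:58199505-58199534, plus strand: agccatTTCTAGGAActGAAACTGAAAgct
Irgm2, chr11:58214896-58214925, plus strand: agccatTTCCAGGAActGAAACTGAAAgct
Irgm1, chr11:48871427-48871456, minus strand: tttcaaGAAATAGAAACCGAAActgattct
The ISRE letters were in 5 of 5 member promoters and the GAS letters in 4 of 5, against 2.98% and 7.02% of all 32851 promoters. Both were in 4 of 5, against 0.332% of all promoters. The 4 stretches that hold both are near copies of one another, so they do not count as independent matches. Of 7 further genes of the family with a promoter sequence, Gm12185 and Gm12250 held both, and 9930111J21Rik1, 9930111J21Rik2, Gm5431, Ifi47 and Irgq held neither. The annotated start of Gm12185 on the minus strand, 48992226, lies beside the Tgtp1 stretch, so its matches may be the same site. In Tgtp1, Tgtp2, Igtp and Irgm2 2 bases separated the GAS match from the ISRE match. The ISRE match began 77 bases before the RefSeq start of Tgtp1, 70 before that of Tgtp2, 34 before that of Igtp and 64 before that of Irgm2. For Irgm2 alone, the sequence after that start was not found in a GENCODE transcript of the gene. Its start lies inside the annotated body of Irgm2, so its promoter is less certain. The RefSeq starts of Tgtp1 and Irgm1 also lie inside the annotated bodies of their genes. Of the bases searched before the Tgtp1 start, 12 lie in an annotated exon of Tgtp1. Irgm1 had 2 overlapping ISRE matches, beginning 30 and 24 bases before its start, and no GAS letters in the window, and its stretch lies inside an exon that GENCODE annotates for the gene. The whole windows of Tgtp2, an effector, and Igtp, a regulator, which overlap no exon of their own gene, show where the pair of matches sits.
Tgtp2, chr11:49064213-49064462, minus strand: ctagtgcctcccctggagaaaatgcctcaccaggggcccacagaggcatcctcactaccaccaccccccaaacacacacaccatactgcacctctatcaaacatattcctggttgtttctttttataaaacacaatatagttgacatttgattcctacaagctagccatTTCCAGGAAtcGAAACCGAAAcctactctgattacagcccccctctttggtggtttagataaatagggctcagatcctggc
Igtp, chr11:58199306-58199555, plus strand: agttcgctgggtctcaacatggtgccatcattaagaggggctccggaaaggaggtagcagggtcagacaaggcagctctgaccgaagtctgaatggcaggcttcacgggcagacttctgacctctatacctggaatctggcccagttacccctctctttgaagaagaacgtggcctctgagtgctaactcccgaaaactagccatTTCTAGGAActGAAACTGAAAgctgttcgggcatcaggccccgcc
A match of letters is a description of the sequence and shows no binding.

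All 6 GTPases were at or below 16.5 CPM in newborn melanoblasts and stood higher in every adult and every aged McSC library. Over all genes tested, 19.5% had every adult library, and 40.4% every aged library, above all melanoblast libraries. Tgtp1 and Tgtp2 were close to undetected in melanoblasts, whereas Iigp1 was at 1.24 to 7.19 CPM and Irgm1 already at 8.73 to 16.5 CPM there. Summed over the family, the level was 24.3, 35.9 and 15.1 CPM in melanoblasts, 202, 283, 274 and 238 CPM in adult McSC and 211 and 203 CPM in aged McSC. Within that sum, Iigp1 was higher in both aged libraries than in any adult one, and Igtp, Irgm1 and Irgm2 were lower. Of all genes tested, 15.5% were higher and 12.1% lower in this way.

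**Figure D1:**
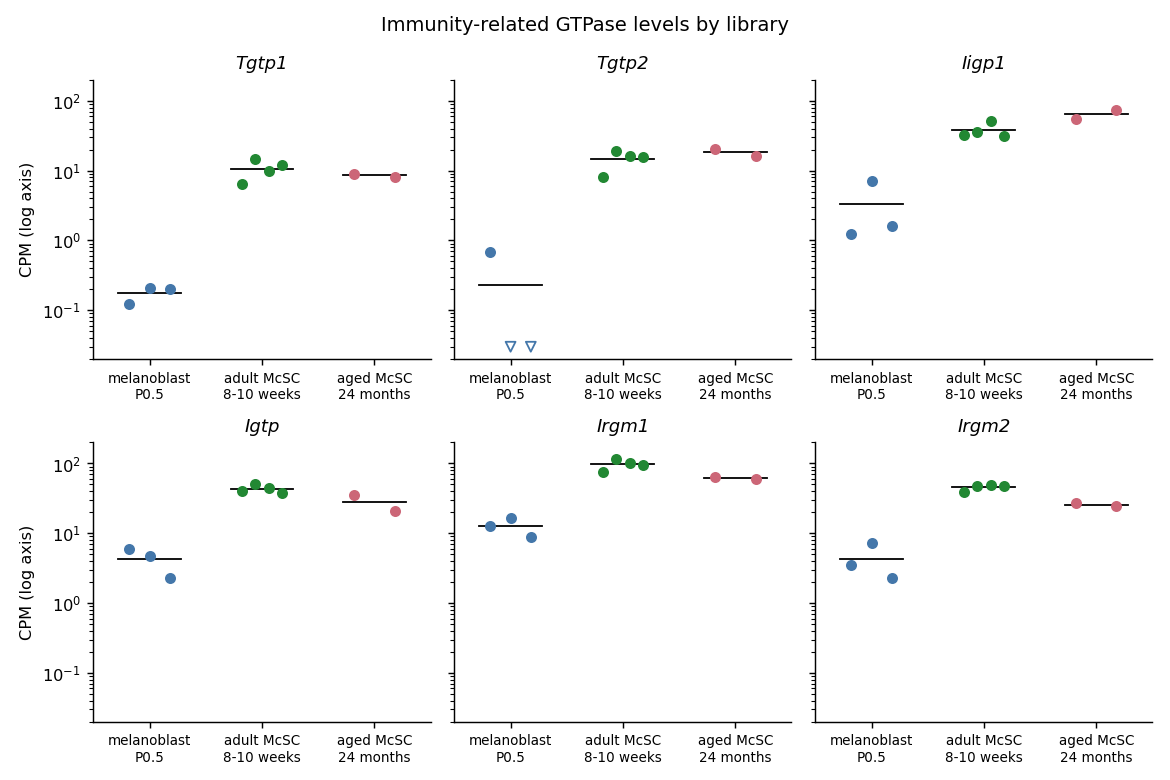
Level of each of the 6 GTPases in each of the 9 libraries (points, CPM on a log axis), by group in the order melanoblast, adult McSC and aged McSC, with lines at group means. All melanoblast points lie below all McSC points in every panel, and open triangles at the foot of the Tgtp2 panel mark the counts of 0 in melanoblast replicates 2 and 3.

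Among the effectors, Tgtp1 had 2, 4 and 4 counts in melanoblasts, which were 0.124, 0.208 and 0.201 CPM. It had 6.39, 14.5, 9.78 and 12.1 CPM in adult McSC and 9.06 and 8.04 CPM in aged McSC. The melanoblast values were thus at the level of a few reads in the whole library, and the adult and aged ranges overlapped. Tgtp2 had 11, 0 and 0 counts in melanoblasts. It had 8.22, 18.9, 16.3 and 15.4 CPM in adult McSC and 20.4 and 16.3 CPM in aged McSC. All of its melanoblast counts were in replicate 1, and its adult and aged values again overlapped. Adult replicate 1 was the lowest of the 4 adult libraries for both genes and replicate 2 the highest.

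Iigp1, the best studied effector of the family, lies on chromosome 18 (60376027-60392634, plus strand, mm10). It had 1.24, 7.19 and 1.61 CPM in melanoblasts. The level was 32.3, 35.9, 51.1 and 31.0 CPM in adult McSC and 55.6 and 74.4 CPM in aged McSC. Melanoblast replicate 2 stood apart from the other melanoblast libraries, and both aged libraries were above all adult ones, as in 15.5% of all genes.

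Among the regulators, Igtp had 5.97, 4.80 and 2.26 CPM in melanoblasts, 40.3, 50.8, 44.9 and 37.3 CPM in adult McSC, and 35.1 and 20.8 CPM in aged McSC. The aged libraries differed from each other more for Igtp than for the other regulators. Irgm1, a regulator found on the Golgi, lysosomes and mitochondria, had 12.8, 16.5 and 8.73 CPM in melanoblasts, 75.7, 116, 102 and 94.5 CPM in adult McSC, and 64.5 and 59.2 CPM in aged McSC. Irgm2, a Golgi-associated regulator, had 3.49, 7.19 and 2.31 CPM in melanoblasts, 39.5, 47.0, 49.7 and 48.1 CPM in adult McSC, and 26.8 and 24.6 CPM in aged McSC. For all 3 regulators both aged libraries lay below all adult libraries, as in 12.1% of all genes, and all melanoblast libraries lay below both groups.

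Levels of different genes were compared per kilobase of annotated exon. In melanoblasts, the order in CPM per kilobase was Irgm1 (2.18 ± 0.671, SD, n = 3), Igtp (2.15 ± 0.939), Irgm2 (1.17 ± 0.691) and Iigp1 (0.575 ± 0.573). Tgtp2 at 0.0777 and Tgtp1 at 0.0555 CPM per kilobase came last. Irgm1 and Igtp did not differ beyond their spread. In the 4 adult libraries, Igtp ran from 18.5 to 25.1 CPM per kilobase, Irgm1 from 13.0 to 19.9, Irgm2 from 10.7 to 13.5, Iigp1 from 5.33 to 8.78, Tgtp2 from 2.80 to 6.43 and Tgtp1 from 1.99 to 4.54, in the order of their means. By this length each of the 3 effectors was below each of the 3 regulators, and only neighbours in this order overlapped, apart from Irgm2, which lay clear of Iigp1. In aged McSC Igtp (13.8 ± 5.01, SD, n = 2), Iigp1 (11.2 ± 2.29) and Irgm1 (10.6 ± 0.643) were within their spread of each other. Irgm2 followed at 6.97 ± 0.431, Tgtp2 at 6.24 ± 1.00 and Tgtp1 at 2.67 ± 0.223 CPM per kilobase. The order depended on the length used. With the longest transcript in place of all exons, Irgm1 came before Igtp in adult McSC (25.3 and 21.4 CPM per kilobase), and the means of Iigp1 and Irgm2 came within 1 SD of each other (12.04 and 13.06 CPM per kilobase). By the same length, Iigp1 came before Irgm1 and Igtp in aged McSC (20.8, 16.1 and 13.8 CPM per kilobase).

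Aged against adult McSC was taken as the comparison that played no part in the choice of members. The rule of choice names symbols only and does not state this, and earlier results of these data were known. Iigp1 averaged 65.0 ± 13.3 CPM in aged McSC and 37.6 ± 9.27 CPM in adult McSC (SD, n = 2 and 4). Irgm2 averaged 25.7 ± 1.59 CPM in aged McSC and 46.1 ± 4.49 CPM in adult McSC, and Irgm1 61.8 ± 3.73 CPM and 96.9 ± 16.6 CPM. None of the 6 passed edgeR's quasi-likelihood test with Benjamini-Hochberg adjustment over all 31961 genes tested, where 0.303% of genes (97) did, 17 higher and 80 lower. With factors from abundant genes only, that split was 32 higher and 25 lower. At an unadjusted p under 0.05 there were 2 of 6 members, Irgm1 and Irgm2, against 10.2% of all genes. DESeq2 called 0 of 6 and limma voom called 1, Irgm2.

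The log2 fold changes of aged against adult McSC were 0.79 for Iigp1 (SE 0.42, edgeR adjusted p = 0.535), -0.84 for Irgm2 (SE 0.32, adjusted p = 0.382), -0.65 for Irgm1 (SE 0.27, adjusted p = 0.435) and -0.63 for Igtp (SE 0.31, adjusted p = 0.494). Over the alternative settings the adjusted p ran from 0.0719 to 0.956 for Iigp1 and from 0.0207 to 0.956 for Irgm2, the lowest from limma voom. Tgtp1 was at -0.32 (SE 0.36) and Tgtp2 at 0.32 (SE 0.49), with edgeR adjusted p of 0.782 and 0.852. Summed into 1 gene, the pair was at 0.08. Approximate 95% intervals, from the SE and a normal distribution, ran from -0.04 to 1.62 for Iigp1 and from -1.46 to -0.22 for Irgm2. Differences of more than 2-fold in these directions are inside them. For Tgtp2 the interval ran from -0.64 to 1.28. Such intervals are narrower than the F test implies. That of Igtp, -1.24 to -0.02, left out 0, although its unadjusted edgeR p was not under 0.05. The aged libraries did not overlap the adult ones for 4 of 6 members, 1 above and 3 below, where 15.5% and 12.1% of all genes did so. The median log2 fold change of the 6 was -0.48, against 0.08 over all genes tested. Factors from abundant genes moved these medians to -0.10 and 0.42 and the value of Tgtp1 to 0.07.

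**Figure D2:**
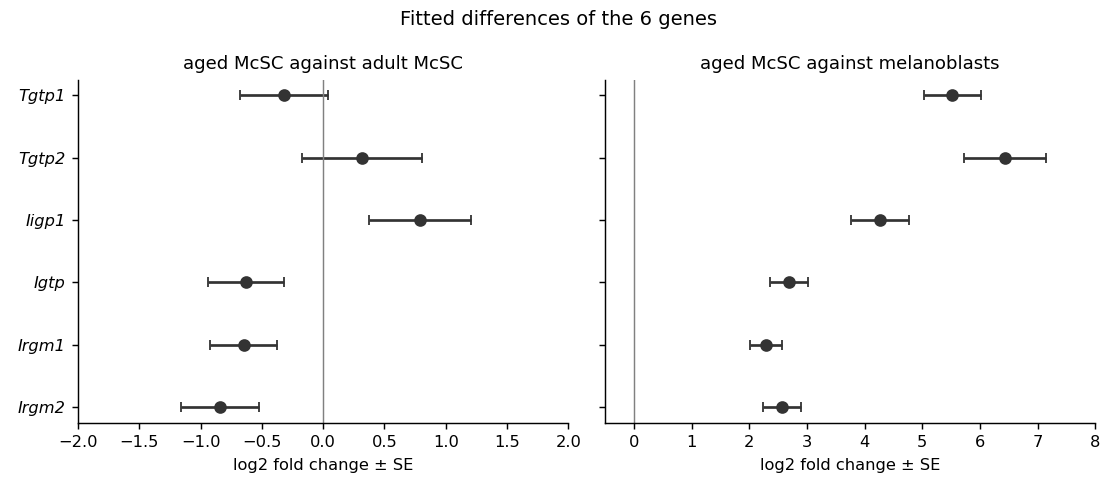
Log2 fold changes of the 6 GTPases in aged McSC against adult McSC (left) and against melanoblasts (right), as points with bars of 1 SE from the edgeR fit. Against adult McSC the values lie on both sides of 0 with none past the threshold, and against melanoblasts all 6 lie above 2.

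The balance of the classes was also read inside each library, where scaling between libraries plays no part. These ratios were chosen after the values had been seen and carry no test. The counts of Iigp1 were 0.862 and 1.26 of those of Irgm1 in aged McSC, against 0.426, 0.311, 0.502 and 0.328 in adult McSC. Melanoblasts had 0.0976, 0.435 and 0.184. Both aged values were above all others. The summed effectors were 0.0924, 0.26 and 0.136 of the summed regulators in melanoblasts, 0.302, 0.325, 0.393 and 0.325 in adult McSC and 0.673 and 0.944 in aged McSC. Igtp to Irgm2, a ratio within the regulators, was 1.31 and 0.845 in aged McSC and between 0.777 and 1.08 in adult McSC, so that these groups overlapped.

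Tgtp1 made up 30.7% and 33.1% of the counts of the Tgtp pair in aged McSC, with Wilson 95% intervals of 27.5% to 34.2% and 28.8% to 37.7%. These intervals cover counting error only, and how the reads that both genes share were divided is unknown. The adult shares were 43.7%, 43.5%, 37.6% and 44.1%, of which the lowest had an interval of 33.9% to 41.4%. Both aged shares were below all adult ones, but the intervals of both aged libraries overlapped that lowest adult interval. Melanoblasts held 13, 4 and 4 counts of the pair, too few to place their shares.

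**Figure D3:**
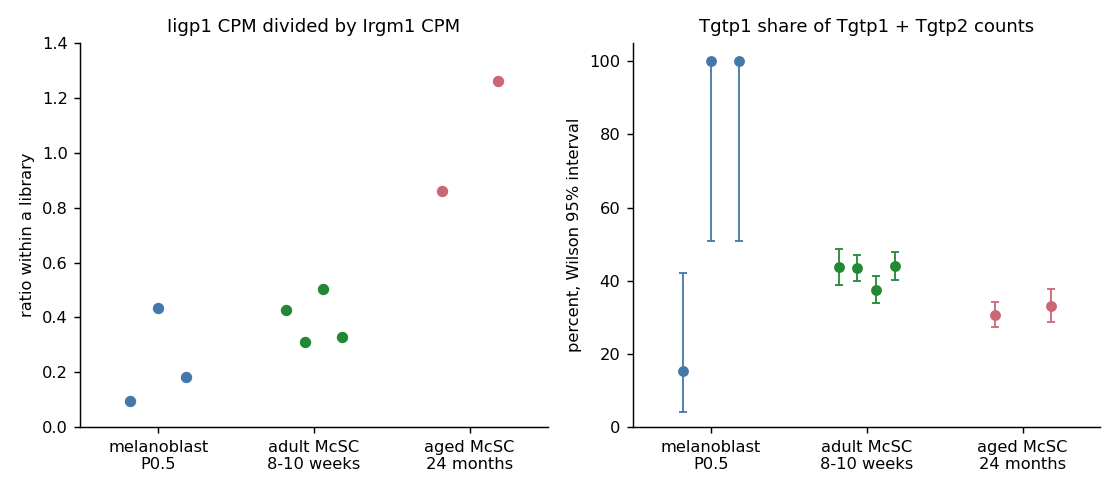
Left, CPM of Iigp1 divided by CPM of Irgm1 in each library, and right, the share of Tgtp1 in the counts of the Tgtp pair (percent, bars are Wilson 95% intervals for counting error only), by group in the order melanoblast, adult McSC and aged McSC. The ratio is higher in both aged libraries, at 0.862 and 1.26, than in the other 7, and the aged shares lie below all adult ones.

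Aged McSC against melanoblasts is given as a description, since the melanoblast libraries took part in the choice of members. With so few melanoblast counts, Tgtp1 and Tgtp2 passed the filter on low counts through the McSC libraries. All 6 were higher in aged McSC, where 20.4% of all genes tested were called higher and 20.3% lower (6514 and 6491 genes). With factors from abundant genes only, 15498 genes were called higher and 1721 lower, and the median over all genes moved to 1.80 from 0.70. The median of the 6 members was 4.68 under that scaling and 3.48 in the fit as designed. Tgtp2 had the largest log2 fold change of the 6 at 6.44 (SE 0.71), but this rests on melanoblast replicate 1. Without that library its remaining melanoblast counts were 0 and the fitted 11.68 is set by the prior count. Tgtp1 was at 5.52 (SE 0.49) and the summed pair at 6.09, a 68-fold difference that was 128-fold without melanoblast replicate 1.

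Iigp1 was 19.2-fold higher in aged McSC than in melanoblasts (log2 fold change 4.27, SE 0.50), and its log2 value was 5.50 without melanoblast replicate 2. The regulators had smaller fold changes, at 6.47-fold for Igtp, 5.93-fold for Irgm2 and 4.88-fold for Irgm1. The log2 value of Irgm2 was 2.57, and 3.16 without melanoblast replicate 2. In each of the 6, both aged libraries were above all 3 melanoblast libraries, as in 40.4% of all genes.

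In adult McSC against melanoblasts all 6 were also higher, where 15.1% of all genes were called higher and 18.3% lower. The fitted folds were 57.5 for Tgtp1, 69.5 for Tgtp2, 11.1 for Iigp1, 10.6 for Irgm2 and 7.65 for Irgm1. Igtp had a log2 value of 3.33. In each of the 6, all adult libraries were above all melanoblast libraries, as in 19.5% of all genes. The value of Tgtp2 again rests on melanoblast replicate 1, and that of Iigp1 was 3.48 on the log2 scale or 4.71 without melanoblast replicate 2. The adult libraries are shared by this comparison and that of aged with adult McSC. Across the 9 libraries Pearson's r between members ran from 0.86 (Tgtp2 and Iigp1) to 0.99 (Irgm1 and Irgm2) on log2 CPM, a description that the gap between melanoblasts and McSC largely sets.

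The family has other loci, of which 12 symbols were listed, 11 were in the tables and 10 were tested. In aged against adult McSC 6 of 10 had an unadjusted p under 0.05, against 10.2% of all genes, and 1 of 10 was called, higher, against 0.303% called in either direction. This was 9930111J21Rik2, a gene in the chromosome 11 group between Tgtp1 and Tgtp2 (49015874-49051242, minus strand). It had 1.43, 0.573 and 0.803 CPM in melanoblasts, 25.8, 16.2, 15.9 and 15.0 CPM in adult McSC and 55.6 and 56.1 CPM in aged McSC. The groups did not overlap at any step. Its log2 fold change was 1.62 in aged against adult McSC (SE 0.28, edgeR adjusted p = 0.00615), a call lost without aged replicate 2 (log2 value 1.64, adjusted p = 0.119). Over the other alternatives its value ran from 1.49 to 1.93 and stayed past the threshold. It was at 5.91 in aged McSC against melanoblasts (SE 0.37, adjusted p = 2.01e-10). Of its read-length windows 46% also occurred in 9930111J21Rik1 or Gm5431, both of which were scarcer.

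F830016B08Rik and Gm4951, neighbours of Iigp1 on chromosome 18, followed the same order. F830016B08Rik had at most 0.622 CPM in melanoblasts, 3.16, 3.38, 4.25 and 3.08 CPM in adult McSC and 10.8 and 10.5 CPM in aged McSC. Its aged-to-adult log2 fold change of 1.61 did not pass (SE 0.45, edgeR adjusted p = 0.172). Gm4951 had 8.21 and 7.29 CPM in aged McSC and 2.37 to 3.34 CPM in adult McSC (log2 fold change 1.47, SE 0.48, adjusted p = 0.289). Neither shared a read-length window with another gene. In aged McSC against melanoblasts 7 of the 10 loci rose and 1 fell, against 20.4% and 20.3% of all genes. In adult McSC against melanoblasts 6 rose and 1 fell, against 15.1% and 18.3%. Their medians were 3.11 and 2.36 on the log2 scale, against 0.70 and 0.39 over all genes.

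The member of the list that fell was Irgq, a divergent family gene, at 91.2 CPM in melanoblasts, 48.1 CPM in adult McSC and 28.2 CPM in aged McSC. Its fall did not pass with factors from abundant genes (log2 fold changes of -0.52 for aged and -0.11 for adult McSC against melanoblasts). Gm12185, which shares reads with Tgtp1, averaged 0.569 CPM in melanoblasts, 4.50 CPM in adult McSC and 4.94 CPM in aged McSC. Gm4841 averaged 0.318, 2.02 and 2.83 CPM in the same order, 9930111J21Rik1 0.297, 1.19 and 3.37 CPM, and Irgc1 0.699, 0.885 and 3.55 CPM. These low levels lie near those of olfactory and vomeronasal receptor genes, which skin cells are not known to use. The 95th percentile of the mean level over 1915 such genes was 0.786 CPM in melanoblasts, 1.77 CPM in adult McSC and 2.05 CPM in aged McSC, and their summed share of counts was 175 to 392, 792 to 1520 and 1640 to 1750 ppm. The part of this background in the results was not tested. All 6 members were above that percentile in every adult and aged library, whereas in melanoblasts the means of Tgtp1 and Tgtp2 were below it.

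**Figure D4:**
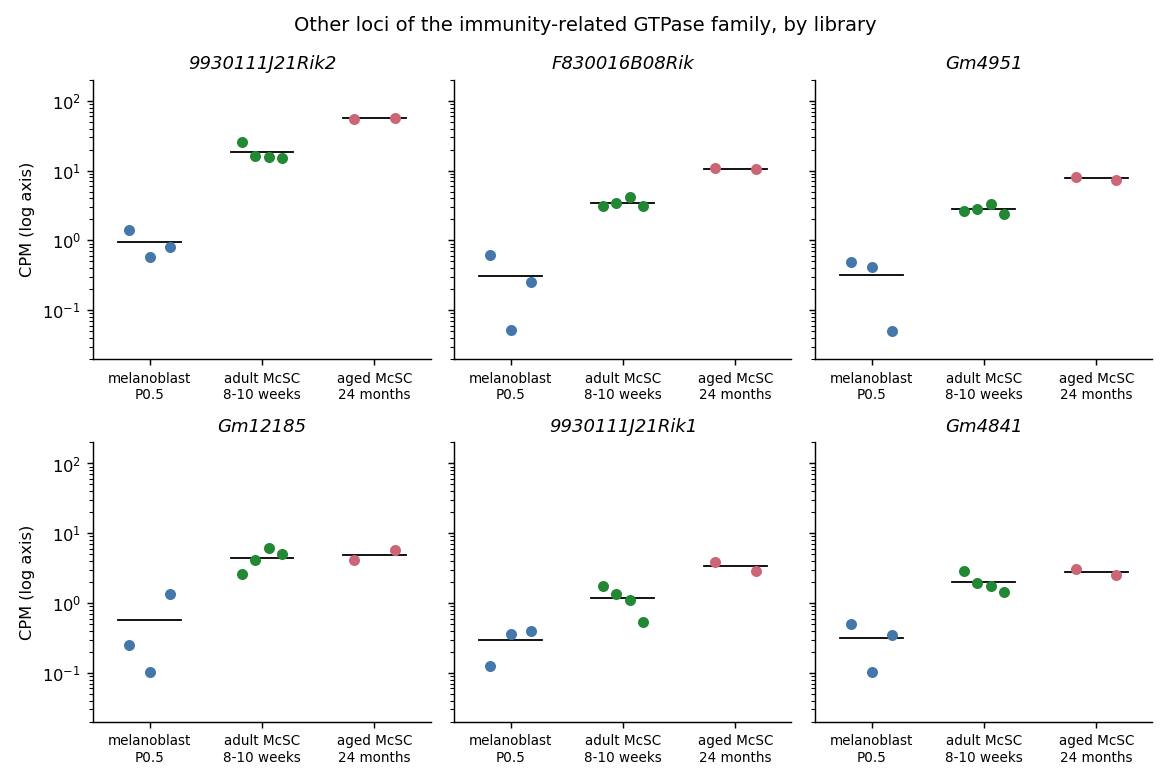
Level of 6 other loci of the IRG family in each library (points, CPM on a log axis), by group in the order melanoblast, adult McSC and aged McSC, with lines at group means. 9930111J21Rik2, F830016B08Rik and Gm4951 step up from melanoblast to adult to aged libraries without overlap.

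The 17 protein-coding genes within 100 kb of a member that are neither members nor on that list were called in both directions. In aged McSC against melanoblasts 7 were higher and 4 lower, against 20.4% and 20.3% of all genes, and in adult McSC against melanoblasts 7 and 3, against 15.1% and 18.3%. With factors from abundant genes these were 11 and 1, and 10 and 1. Without the olfactory receptor genes, 13 neighbours remained. Of these, 4 were higher and 4 lower in aged McSC against melanoblasts, and 5 and 3 in adult McSC, in the fit as designed. Their median log2 fold changes were -0.51 and -0.31, against 1.42 and 0.82 for all 17. In aged against adult McSC edgeR and DESeq2 called 0 of 17 and limma voom 2. An unadjusted edgeR p under 0.05 (10.2% of all genes) was found for 2 of 17. Ifi47, itself an interferon-inducible GTPase of the family that the lists had left out, showed the largest difference among the neighbouring genes. It had 0.436, 0.469 and 0.100 CPM in melanoblasts, 13.6, 15.0, 16.2 and 18.1 CPM in adult McSC, and 10.6 and 5.21 CPM in aged McSC. Its log2 fold change was 4.57 in aged and 5.55 in adult McSC against melanoblasts (edgeR adjusted p = 1.02e-07 and 8.84e-10). It was at -0.98 in aged against adult McSC (adjusted p = 0.378), and both aged libraries were below all adult ones. Rack1, a ribosome-associated scaffold whose gene lies near Irgm1, was called lower in both comparisons with melanoblasts, at 429 CPM in melanoblasts, 171 CPM in adult McSC and 93.6 CPM in aged McSC.

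The other genes of the interferon pathway were read from 8 lists with 94 symbols, of which 90 genes were tested. In aged McSC against melanoblasts 35 rose and 17 fell (median 0.91), where 20.4% and 20.3% of all genes did (median 0.70). In adult McSC against melanoblasts 40 rose and 12 fell (median 0.90), where 15.1% and 18.3% of all genes did (median 0.39). With factors from abundant genes the splits of the 90 were 65 and 5, and 62 and 4. In aged against adult McSC edgeR called 0 of 90, against 0.303% of all genes (median -0.41, or -0.06 with those factors). At an unadjusted edgeR p under 0.05 there were 23 of 90, 21 of them lower, against 10.2% of all genes. DESeq2 called 3 and limma voom 12. The shares over all genes given here also apply to the single lists below.

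Ligands were scarce. Ifng, interferon-gamma itself, had 8, 3 and 0 counts in melanoblasts, 9, 3, 2 and 1 in adult McSC and 1 and 0 in aged McSC, and was not tested. Ifnk, the interferon of keratinocytes, averaged 0.249 CPM in melanoblasts, 2.19 CPM in adult McSC and 2.89 CPM in aged McSC. It rose by 3.49 in aged and 3.10 in adult McSC against melanoblasts on the log2 scale (edgeR adjusted p = 0.00118 and 0.00163). Of the 4 ligands tested 3 rose in both comparisons (Ifna2, Ifnk and Ifnl3), at levels near the receptor-gene percentile above.

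Receptor genes did not follow the GTPases. In both comparisons with melanoblasts 1 of 6 rose (Ifnlr1, a subunit of the lambda interferon receptor) and 3 fell, or 2 and 2 with factors from abundant genes. Ifngr2, a subunit of the interferon-gamma receptor, averaged 35.8 CPM in melanoblasts, 11.3 CPM in adult McSC and 8.66 CPM in aged McSC. It fell by 2.04 in aged McSC (edgeR adjusted p = 2.68e-05) and by 1.67 in adult McSC (adjusted p = 1.09e-05) on the log2 scale. Ifngr1, its partner subunit, averaged 30.1, 19.3 and 14.0 CPM in the same order. It was called lower in aged and adult McSC (log2 fold changes of -1.10 and -0.64, adjusted p = 0.00549 and 0.0387), but with factors from abundant genes it was at 0.08 and 0.17. The call in adult McSC was lost in most other settings, and that in aged McSC without aged replicate 2 (log2 value -0.75, adjusted p = 0.143). Ifnar1, a subunit of the type I receptor, fell by 2.13 in aged and by 1.38 in adult McSC.

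Among JAK-STAT and IRF genes 3 of 9 rose and 2 fell in aged McSC against melanoblasts, and 4 rose and 1 fell in adult McSC, or 6 and 7 risen with 0 fallen with factors from abundant genes. Irf1, an early interferon-gamma target that binds the ISRE, averaged 28.3 CPM in melanoblasts, 75.1 CPM in adult McSC and 70.4 CPM in aged McSC. It rose by 1.32 in aged and 1.41 in adult McSC (edgeR adjusted p = 0.00025 and 2.68e-05). Stat2, part of the complex that binds the ISRE, rose by 1.18 in aged and 1.60 in adult McSC. Jak2 was called lower, at 182 CPM in melanoblasts, 118 CPM in adult McSC and 86.8 CPM in aged McSC, with log2 values of 0.09 in aged and 0.17 in adult McSC when abundant genes set the scale. Of 7 negative regulators 3 rose (Socs1, Socs3 and Usp18) and 0 fell in both comparisons, or 4 and 1 with limma voom. Scaled by abundant genes, 7 rose and 0 fell. Socs3, which restrains JAK signalling, was between 6.52 and 13.3 CPM in melanoblasts, 122 CPM in adult McSC and 68.0 CPM in aged McSC.

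Targets of interferon that passed were nearly all higher, as the GTPases were. Of 18 type II targets 10 rose and 1 fell in aged McSC against melanoblasts and 11 rose and 1 fell in adult McSC. Their medians were 1.69 and 1.63, against 0.70 and 0.39 over all genes. Scaling by abundant genes made the counts 17 and 1, and 16 and 0. Nlrc5, the activator of MHC class I genes, had 2.49 to 5.42 CPM in melanoblasts, 44.1 to 50.8 CPM in adult McSC and 37.6 and 43.5 CPM in aged McSC. Tap1, a peptide transporter, rose by 1.67 in aged and 2.10 in adult McSC, and Cd274, which encodes the checkpoint ligand PD-L1, by 2.00 and 2.41. Of 19 type I targets 7 rose and 1 fell in aged McSC, and 7 rose and 0 fell in adult McSC. With factors from abundant genes 12 and 11 rose and 0 fell. In the fit as designed their medians were 0.79 and 0.71, the first of them near the 0.70 over all genes. Ifit3, an antiviral protein, rose by 2.36 in aged and 3.26 in adult McSC, and Oasl2, of the oligoadenylate synthetase family, by 1.81 and 1.75. Ifit1, an RNA-binding antiviral protein, had 6.63 and 9.43 CPM in aged McSC and 21.2 to 33.1 CPM in adult McSC (log2 fold change -1.66, SE 0.39, edgeR adjusted p = 0.0759). Of the 11 guanylate-binding proteins, large GTPases that cooperate with the IRG proteins on vacuoles, 8 rose in aged and 10 in adult McSC (10 in each with factors from abundant genes), and 0 fell. Gbp2 had 7.03, 5.68 and 3.01 CPM in melanoblasts, 67.3, 93.4, 67.3 and 57.9 CPM in adult McSC, and 40.8 and 30.7 CPM in aged McSC. Gbp6 averaged 2.05, 20.0 and 27.7 CPM in the same order, and Gbp4 rose by 2.91 in aged and 3.08 in adult McSC.

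**Figure D5:**
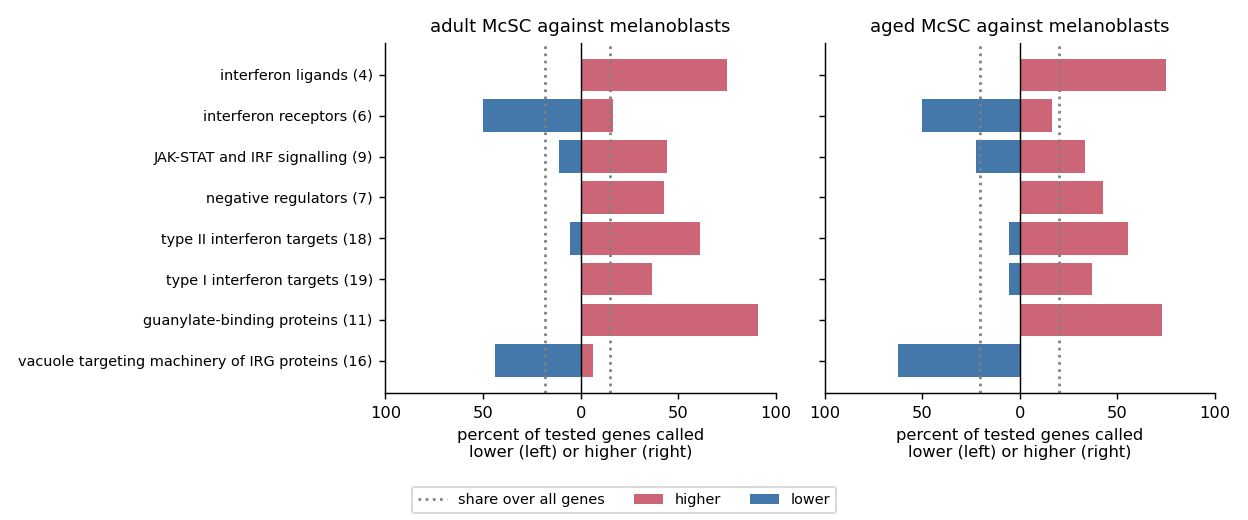
Percent of the tested genes of each interferon pathway list called lower (to the left) and higher (to the right) in adult McSC against melanoblasts and in aged McSC against melanoblasts, with the number tested in brackets and dotted lines at the share over all genes. Calls are nearly all higher in the target and guanylate-binding lists and mostly lower in receptors and the vacuole targeting machinery, while factors from abundant genes gave the receptors an even split and turned the vacuole list.

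The machinery that directs IRG proteins to vacuoles includes ubiquitin-like conjugation genes of autophagy and the ubiquitin ligase Traf6. Of 16 such genes 0 rose and 10 fell in aged McSC against melanoblasts, and 1 rose and 7 fell in adult McSC. With factors from abundant genes the split turned, to 7 risen and 2 fallen and to 6 and 2. Traf6 averaged 183 CPM in melanoblasts, 66.7 CPM in adult McSC and 43.6 CPM in aged McSC, and fell by 2.07 in aged and 1.46 in adult McSC (edgeR adjusted p = 5.39e-06 and 1.19e-05). Map1lc3b, an LC3 gene, fell by 1.41 and 0.79, or by 0.25 and 0.01 with those factors, where it did not pass.

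Genes with the pattern most like the mean of the 6 members were found among 9229 protein-coding genes that averaged at least 10 CPM in a group. The closest were Runx1, a transcription factor, Cdkn1a, an inhibitor of the cell cycle, Nfix, a transcription factor, Palld, an actin-binding gene, and H2-Q4, an MHC class I gene. Their Pearson's r with the mean over the 9 libraries was 0.993 to 0.996. As 451 genes had an r above 0.9, the pattern is that of many genes lower in melanoblasts, and the shared axis is the difference between the groups.

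Leukocytes express IRG genes too, and the sort had removed CD45-positive cells. The 12 summed T and NK cell markers were 7.98 to 18.4 CPM in melanoblasts, 19.1 to 40.1 CPM in adult McSC and 35.8 to 45.1 CPM in aged McSC. None of the 12 was at 0 in every library of a group. Ptprc, the gene of CD45, averaged 1.70 CPM in melanoblasts, 5.74 CPM in adult McSC and 6.89 CPM in aged McSC, and Cd3e 1.17, 2.78 and 4.24 CPM. The 12 macrophage and dendritic cell markers summed to 30.4 to 45.6, 45.2 to 65.0 and 65.5 to 87.3 CPM in the same order. Against melanoblasts, 5 T and NK cell and 6 macrophage markers were higher in aged McSC and 2 and 4 in adult McSC. Over all genes 20.4% and 15.1% were called higher. Mast cell markers went the other way. The 9 summed to 20.2 to 34.9 CPM in melanoblasts, 9.95 to 13.9 CPM in adult McSC and 11.3 to 11.8 CPM in aged McSC. Of the 8 tested, 0 were higher and 2 lower in both comparisons with melanoblasts. Of 9 endothelial markers, which summed to 52.2 to 93.6, 81.8 to 287 and 55.3 to 63.6 CPM, 0 were called higher in aged and 5 in adult McSC. Keratinocyte markers rose in 10 of 11 in both comparisons, and Cdh1 fell. Of the 10 melanocyte lineage markers 7 fell in aged and 8 in adult McSC against melanoblasts, and 0 rose. Over all genes 20.3% and 18.3% fell. In aged against adult McSC, the fibroblast and Schwann cell lists had calls, all lower, where 0.303% of all genes were called in either direction. The 8 fibroblast markers summed to 619 to 2200 CPM in melanoblasts, 513 to 992 CPM in adult McSC and 151 to 280 CPM in aged McSC, and 3 of 8 were lower in aged than in adult McSC. The 9 Schwann cell markers summed to 808 to 1300, 798 to 977 and 330 to 399 CPM in the same order, and 4 of 9 were lower in aged than in adult McSC. Igtp, Irgm1 and Irgm2 also lay lower in aged than in adult McSC, without passing the test. The part of these cells in the GTPase levels was not tested.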

How the data were processed

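The deposited values were raw counts per Ensembl gene, made by the authors without normalization, for 49671 genes in each of 9 libraries. Per the labels' protocols, 20 ng of RNA was amplified (Ovation V2), 1000 ng of cDNA went through 10 PCR cycles, and 126-base pairs were read. Counts therefore follow amplified cDNA, not molecules. Trimmomatic 0.36, STAR 2.5.2, SAMtools 1.9 and build mm10 were used, per the submitters' processing notes. How reads were counted, by strand and where shared, is not given in the sources used here. GENCODE M21 matched 49412 identifiers. The other 259, with 0.029% of counts, were tested too.

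Groups came from sample titles. edgeR 4.0.16 (R 4.3.3; TMM, filterByExpr, robust quasi-likelihood F test, Benjamini-Hochberg over 31961 genes, threshold 0.05) fitted all 9 libraries with group means. SE came from the F statistic. The fit was tested on simulated counts. Log2 CPM used a prior count of 2. Within groups, chi-square per degree of freedom was 15.2 to 63.3 between library pairs, above sampling noise, so each counted as a replicate. Other settings were RLE factors, DESeq2 1.42.0, voom in limma 3.58.1 with weights for library quality, factors from genes above a log2 CPM of 5, no mitochondrial genes, no filter, a stricter filter (5 CPM in 2 libraries), a replicate block, the summed Tgtp pair, only the groups compared, and leaving out each library.

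The members and lists were chosen with earlier results of these data known. Named genes were all members, other IRG loci above 1 CPM, up to 3 genes per pathway list with the smallest p, Ifng, Ifngr1, Ifngr2 and Irf1, and the 8 genes most like the members, from which the closest are given. Not all genes that the rule takes are reported here. Ifi47, Rack1, Ptprc and Cd3e were named after their values were seen. Promoters were RefSeq sequences on GRCm38.p6.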

Additional observations from a re-analysis of the deposited data

Results flagged for a closer look

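Among 47 sets of 4 adult values examined, 3 had a library standing apart from the other adult libraries by Dixon's ratio, where chance gives about 1 in 20. The share of Tgtp1 in the Tgtp pair was lowest in adult replicate 3, at 37.6%, against 43.5% to 44.1% in the other adult libraries and 30.7% and 33.1% in the aged ones. 9930111J21Rik2 was highest in adult replicate 1, at 25.8 CPM, against 15.0 to 16.2 CPM in the other adult libraries. Without that library its log2 fold change in aged against adult McSC was 1.85, above the 1.62 with all libraries. Gbp6 was lowest in adult replicate 4, at 13.9 CPM, against 21.7 to 22.6 CPM in the others.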

How the results depend on the processing

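All 6 members were higher in aged and in adult McSC than in melanoblasts under every alternative that gave a value, a direction that the choice of members fixed. In aged against adult McSC the count of members was 0 throughout, except 1 with limma voom (Irgm2, log2 fold change -0.88, adjusted p = 0.0207). Leaving out a library took Tgtp2 to between 5.82 and 11.68 in aged, and between 5.50 and 11.36 in adult McSC against melanoblasts. For the summed Tgtp pair, leaving out a library gave -0.09 to 0.26 in aged against adult McSC. With factors from abundant genes, Tgtp1 was at 0.07 in aged against adult McSC, Jak2 at 0.09 in aged and 0.17 in adult McSC, and Ifngr1 at 0.08 and 0.17. The cause of these changes was not tested.

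Calls in aged against adult McSC depended on the method. Over all genes, 97 became 57 with factors from abundant genes, 339 with DESeq2, 1416 with limma voom, 343 without a filter, 311 with only the groups compared, and 13 (without aged replicate 2) to 303 (without melanoblast replicate 3). The pathway lists gave 3 with DESeq2, 12 with limma voom, 3 without a filter, 2 with only the groups compared and 0 to 4 with a library left out. Other IRG loci gave 2, 6, 2, 3 and 0 to 2 in that order, and neighbouring genes 2 with limma voom. The stricter filter tested fewer genes and gave 7611 calls, against 13005, in aged and 6877, against 10676, in adult McSC against melanoblasts, 6 neighbours in each, against 11 and 10, and 4 other IRG loci, against 7, in adult McSC. With a library left out these totals were 7410 to 16292 and 8056 to 14059.

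With the replicate block the whole table gave 172 calls in aged against adult McSC and the pathway lists 4, and no member was called there. The labels give the numbers no shared batch, and libraries of equal number did not vary together (correlations of their deviations -0.08 to 0.20), so the numbers were not taken as pairs. With 2 aged pools, and melanoblast counts of the Tgtp genes of 0 to 11, depth limits the folds of that pair, as do its shared reads.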
